A study of Homo sapiens with 8 samples.

Results

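Compound 4 was set directly against compound 6 over every gene expressed in CYP3A4-overexpressing HepG2 cells. The comparison comprised 4 of the 8 samples, the 2 replicates of compound 4 and the 2 replicates of compound 6. The 2 DMSO replicates served only to show in which direction each compound had moved a gene. HepG2 is an established human liver tumour line, and the derivative used in every group overexpressed CYP3A4, the main drug-oxidising enzyme of the liver, under blasticidin selection. Both treatments lasted 24 h, and control cells received 0.2% DMSO. Each compound was given at its own IC50 concentration, so the doses were set by toxicity and not matched in molar terms. The compound and its concentration cannot be told apart here. Replicate 1 of each group is labelled day 1 and replicate 2 day 2, and the label of replicate 1 of compound 4 marks it as merged from 2 parts. Nothing states that the replicates came from separate cultures, so the p-values measure only the spread between these samples, which may be technical.

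Both compounds are phenolic antioxidants used in plastics, built from a pair of methylphenol rings joined by a methylene bridge. Compound 4 carries a tert-butyl group on each ring, and compound 6 carries a cyclohexyl group in its place. This was the only pair compared, and it differs by that single substituent. Liver cells read foreign compounds through receptors that act on transcription. The aryl hydrocarbon receptor drives CYP1A1, and the pregnane X receptor drives the CYP3A family. Other sensors answer to the state of the cell, among them MTF1, which switches on the zinc-binding metallothioneins, SREBP2, which controls cholesterol synthesis, and ATF4, which responds to amino acid shortage and other stress.

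The deposited gene counts summed to between 9472261 and 12868048 per library over the 6 libraries described. Levels are given as CPM, counts scaled to the library total, and 3 counts correspond to between 0.233 and 0.317 CPM in these libraries, counting error only. All 10 markers of hepatocytes were measured, at a summed 33435 to 45688 CPM. The defining leukocyte markers PTPRC, CD3E and MS4A1 were at 0 in the 6 libraries, and endothelial markers summed to at most 2.43 CPM. The summed leukocyte level of 2152 to 3093 CPM was almost all LYZ. Fibroblast markers summed to 18.2 to 22.3 CPM and cholangiocyte markers to 431 to 474 CPM. The samples were a single cultured line, and the origin of these transcripts was not tested. CYP3A4 itself was at 289 and 215 CPM after compound 4, 173 and 172 CPM after compound 6 and 202 and 214 CPM in DMSO. The parental line was not analysed here, so these levels do not check the overexpression.

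Libraries of the 2 compounds were about as far from each other as replicates of the same compound. The root mean square difference in log2 CPM was 0.455 between the compound 4 replicates and 0.442 between those of compound 6. Between the compounds it was 0.414, 0.448, 0.492 and 0.496 for the 4 pairs of libraries. Part of this spread followed transcript length. The median difference between compound 4 and compound 6 ran from 0.10 (log2) in the fifth of genes with the shortest transcripts to -0.11 in the fifth with the longest. Between the replicates of compound 4 (replicate 2 minus replicate 1) the same medians ran from 0.16 to -0.26, and between those of compound 6 from -0.07 to 0.05. For the lists described at most length the median is therefore also given relative to genes of the same length class, an alternative chosen after the data had been seen.

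Few genes separated the 2 compounds in the main edgeR fit. Of 13404 tested genes, 6 passed an edgeR adjusted p of 0.05, which is 0.0448% of the genes, with 3 higher (0.0224%) and 3 lower (0.0224%) with compound 4. RAB17, HSD17B2 and CCR6 were higher with compound 4, and NPC1L1, RSC1A1 and the unnamed ENSG00000277067 were lower. At an unadjusted p under 0.05 there were 1315 genes (9.81%), of which 703 (5.24%) were higher with compound 4 and 612 (4.57%) lower. For 11020 genes (82.2%) the 95% interval of the difference, not adjusted for the number of genes, lay within 2-fold either way. Larger differences were therefore outside the interval for most genes, while smaller ones were not resolved with 2 samples against 2. Both libraries of compound 4 lay above both of compound 6 in 2374 genes (17.7%) and below them in 2528 (18.9%). Against DMSO, compound 4 raised 871 genes (6.5%) and lowered 727 (5.42%), and compound 6 raised 375 (2.8%) and lowered 215 (1.6%).

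The count of 6 depended on the tool, on the filter and on single libraries. Without the filter on low counts edgeR called 294 of 22717 genes, and 288 of the 294 also passed the filter. Below, a gene is called or passes in edgeR by the main fit unless another fit is named. DESeq2 called 74 of 14349 genes (0.516%), 47 higher (0.328%) and 27 lower (0.188%), among them all 6. Genes described below that passed in DESeq2 but not in edgeR included CYP1A1, MT1G, MT1F, MT1X, CYP3A5, CCL20, FASN, TOP2A, CTSB and HMGCS1. Without replicate 1 of compound 4 edgeR called 117 genes, again with all 6. It called 1 without replicate 2 of compound 4, 2 without replicate 1 of compound 6, and 1 without either DMSO replicate. It called 2 or 3 without a library of compound 5, another compound of the series whose libraries share the estimate of the spread. Without replicate 2 of compound 6 no gene passed in edgeR, while 1304 had an unadjusted p under 0.05. With the day as a block 6 genes (0.0448%) passed, 5 higher and 1 lower, and 3 genes passed in both fits.

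**Figure D1:**
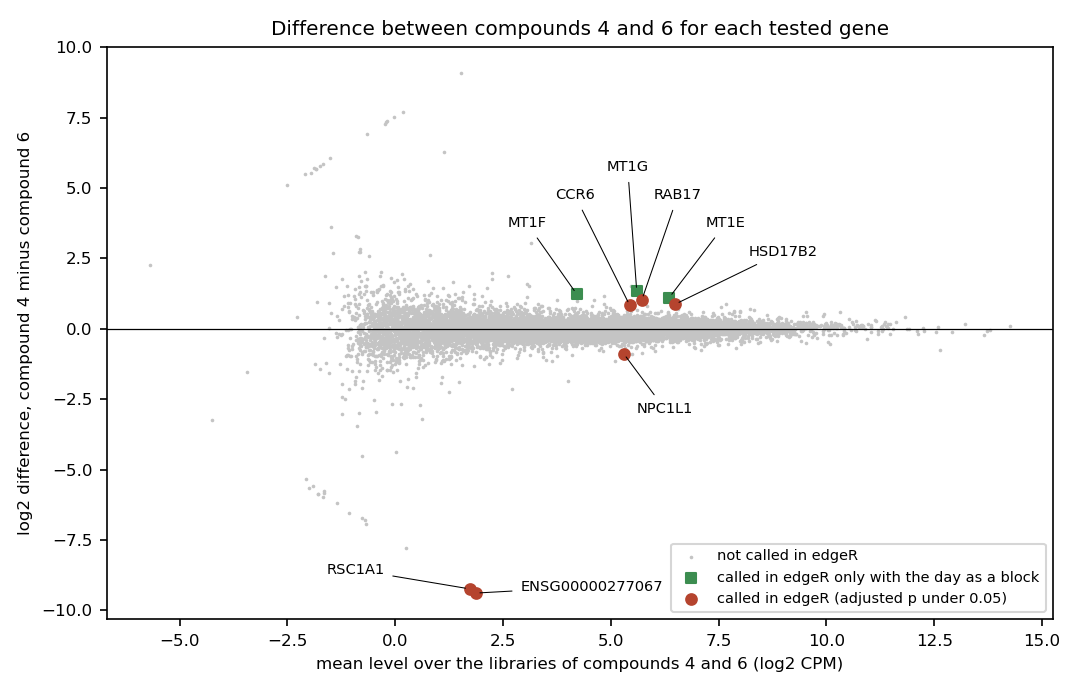
Log2 difference between compound 4 and compound 6 for each tested gene (vertical axis) against its mean level over the 4 libraries (log2 CPM, horizontal axis); 2 genes at 0 in all 4 libraries are not drawn. The 6 genes called in the main edgeR fit are circles. The 3 metallothionein genes not called in that fit but called with the day as a block are squares. RSC1A1 and ENSG00000277067 lie near -9 because both were at 0 with compound 4, so their position depends on the prior count.

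RAB17 encodes a small GTPase of epithelial cells that takes part in traffic to the apical membrane. The gene (ENSG00000124839) lies on the minus strand at chr2:237574322-237601614 in GRCh38 and overlaps an antisense RNA on the opposite strand. It was at 67.1 and 73.7 CPM under compound 4, 34.1 and 35.6 CPM under compound 6 and 43.9 and 39.9 CPM in DMSO. Both compound 4 libraries were above the other 4, and both compound 6 libraries were below DMSO. The level with compound 4 was 2.04 times that with compound 6, a log2 difference of 1.03 (standard error 0.12, 95% interval 0.76 to 1.29, edgeR adjusted p = 0.0257). With the day as a block the edgeR adjusted p was 0.0481, and over 20 alternatives it ran from 1.05e-09 to 0.115. Against DMSO the change was 0.79 with compound 4 (edgeR adjusted p = 0.00233) and -0.24 with compound 6 (edgeR adjusted p = 0.311), so only the rise with compound 4 passed the threshold. Among the 19 tested Rab GTPases of apical and recycling traffic no other member was called, and their median difference was 0.05.

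HSD17B2 encodes the enzyme that oxidises oestradiol and testosterone to their less active ketones. It lies at chr16:82035004-82098534 on the plus strand. Its level was 108 and 124 CPM in cells given compound 4, against 62.9 and 64.97 CPM in cells given compound 6 and 53.7 and 48.0 CPM in DMSO, with no overlap between the 3 groups. The difference between the compounds was 0.87 (standard error 0.12, 95% interval 0.61 to 1.13, edgeR adjusted p = 0.0377). It did not pass with the day as a block (edgeR adjusted p = 0.0638, range over 20 alternatives 1.01e-07 to 0.202). HSD17B2 rose by 1.23 against DMSO with compound 4 (edgeR adjusted p = 3.38e-04), whereas the value with compound 6 was 0.36 (edgeR adjusted p = 0.123). It was the only one of 12 steroid and retinoid dehydrogenases to be called between the compounds, and the median difference of that list was 0.09. The bile acid and steroid reductase AKR1D1 was at 1.98 and 1.71 CPM after compound 4 and 4.43 and 3.24 CPM after compound 6, a difference of -1.03 that was not called (edgeR adjusted p = 0.364).

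CCR6 encodes a chemokine receptor, and CCL20 encodes its ligand. CCR6 (chr6:167111807-167139696, plus strand) was at 54.9 and 55.7 CPM under compound 4, 30.6 and 32.2 CPM under compound 6 and 24.4 and 25.2 CPM in DMSO. The 3 groups did not overlap, and the replicates of each lay close together. The difference was 0.83 (standard error 0.10, 95% interval 0.60 to 1.06, edgeR adjusted p = 0.0368, or 0.049 when blocked by day, range over 20 alternatives 8.18e-06 to 0.155). Of the 31-base stretches of its transcripts, 68.6% also occur in Z94721.2, a transcript on the same strand of the same locus, so the reads of these genes could be divided between them. CCL20 was at 349 and 388 CPM in cells given compound 4, 197 and 260 CPM in cells given compound 6 and 146 and 123 CPM in DMSO. It was ordered like its receptor, but its difference of 0.70 (95% interval 0.38 to 1.02) was not called (edgeR adjusted p = 0.173). CCL20 rose against DMSO with compound 4 (1.49, edgeR adjusted p = 3.73e-04) and with compound 6 (0.79, edgeR adjusted p = 0.0168). Of the 16 tested chemokines, cytokines and NF-kB feedback genes, CCR6 and CCL20 included, 7 were higher and 9 lower, with a median of -0.06.

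NPC1L1 encodes the transporter that takes up cholesterol at the apical membrane of enterocytes and, in human liver, at the bile canaliculus. The gene lies at chr7:44512535-44541315 on the minus strand. It was at 25.99 and 28.9 CPM after compound 4, 52.5 and 49.7 CPM after compound 6 and 48.7 and 51.8 CPM in DMSO. The compound 6 libraries were at the level of DMSO, and compound 4 gave 0.543 of the compound 6 level. The difference between the compounds was -0.88 (standard error 0.12, 95% interval -1.15 to -0.62, edgeR adjusted p = 0.0377). With the day as a block the edgeR adjusted p was 0.0581, and over 20 alternatives it ran from 2.58e-06 to 0.155. Against DMSO NPC1L1 fell with compound 4 (-0.83, edgeR adjusted p = 0.00203), and the value with compound 6 was 0.05 (95% interval -0.21 to 0.31, edgeR adjusted p = 0.864).

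The other 2 called genes were read in DMSO and compound 6 and were at 0 in both compound 4 libraries. RSC1A1, an intronless gene at chr1:15659869-15661722, was at 2.61 and 4.09 CPM in DMSO and 6.65 and 6.55 CPM under compound 6. The 142 counts with compound 6 against none made it at least 53.9-fold lower with compound 4, taking 3 counts over both libraries as the floor (edgeR adjusted p = 0.0368, or 0.0591 when blocked by day, range over 18 alternatives 1.65e-32 to 0.115). Its whole sequence lies within DDI2, which shares 100% of its 31-base stretches. DDI2 was at 105 and 73.0 CPM in cells given compound 4, 111 and 90.9 CPM in cells given compound 6 and 129 and 160 CPM in DMSO. The long noncoding RNA ENSG00000277067 (chr21:7048891-7087229) was at 5.12 and 4.43 CPM in DMSO and 6.55 and 8.05 CPM after compound 6, and was at least 60.3-fold lower with compound 4 (159 counts against 0, edgeR adjusted p = 0.00585). All of its 31-base stretches also occur in CU633904.1. The counts are estimates in which reads of shared sequence are divided between genes, and a level of 0 can come from that division. Whether it did so here was not tested.

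**Figure D2:**
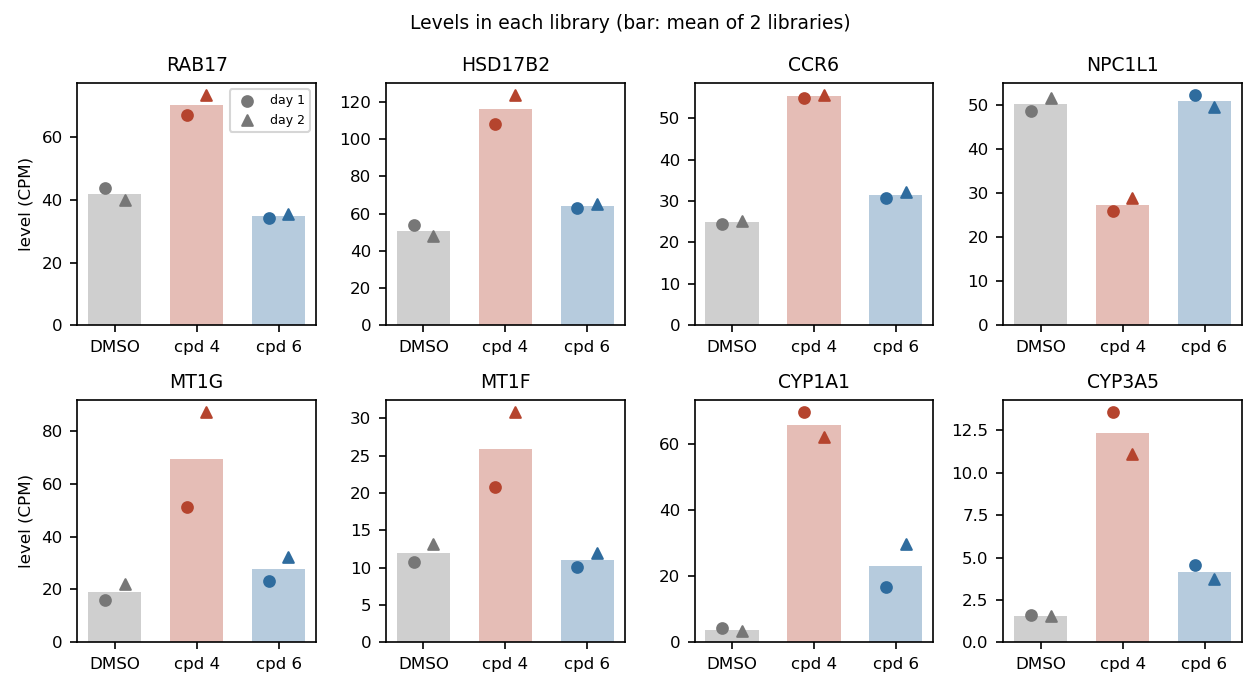
Level in CPM of 8 genes (1 panel each, axes from 0) in DMSO, compound 4 and compound 6. Points are libraries (circle day 1, triangle day 2) and bars are means of 2 libraries. In RAB17, HSD17B2, CCR6 and NPC1L1 the replicates of each compound lie close together, whereas in MT1G and MT1F the day 2 library is above the day 1 library in every group.

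The largest median difference of the 33 gene lists was that of metallothioneins and zinc regulators. Metallothioneins are small cysteine-rich proteins that bind zinc and copper. Of 11 tested members 8 were higher with compound 4 and 3 lower, 7 and 1 of them at an unadjusted p under 0.05. Of all tested genes 5.24% were higher and 4.57% lower at that threshold. The median difference of the list was 0.98 against -0.01 over all genes. Over the 4 pairs of libraries this median ran from 0.39 to 1.52. It was 0.70 without replicate 1 of compound 6 and 1.37 without replicate 2 of compound 6. The transcripts of this list are short, and relative to genes of the same length class the median was 0.78 over the 9 members with a mean of at least 1 CPM. No member passed in the main edgeR fit. In DESeq2 5 passed (MT1G, MT1F, MT1X and SLC30A1 higher, SLC39A10 lower), beside 0.516% of all genes it tested. The summed level of the 7 metallothionein genes was 417 and 580 CPM under compound 4, 182 and 316 CPM under compound 6 and 102 and 124 CPM in DMSO.

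With the day as a block, 3 metallothionein genes of the cluster on chromosome 16 passed, beside 0.0448% of all tested genes. MT1G (chr16:56666731-56668065) was at 51.3 and 87.1 CPM in cells given compound 4, 23.3 and 32.3 CPM in cells given compound 6 and 15.9 and 22.1 CPM in DMSO. Replicate 2 was above replicate 1 in each group, and the libraries of compound 4 were above those of compound 6 on both days. The difference was 1.32 (standard error 0.25, 95% interval 0.77 to 1.88), with an edgeR adjusted p of 0.149 without the block and 0.0255 with it (range over 20 alternatives 2.32e-16 to 0.456). MT1F (chr16:56657694-56660698) was at 20.8 and 30.9 CPM after compound 4, 10.1 and 11.9 CPM after compound 6 and 10.7 and 13.2 CPM in DMSO. Its difference was 1.24 (standard error 0.20), with an edgeR adjusted p of 0.0956 and a blocked value of 0.0481 (range over 20 alternatives 2.36e-09 to 0.369), and the compound 6 libraries overlapped DMSO. MT1E (chr16:56625475-56627112) was at 87.0 and 136 CPM under compound 4, 35.8 and 68.2 CPM under compound 6 and 25.2 and 32.6 CPM in DMSO, a difference of 1.11 (standard error 0.29, edgeR adjusted p = 0.281, or 0.0484 in the blocked fit, range over 20 alternatives 1.07e-12 to 0.702). Leaving out single libraries took the difference from 0.87 to 1.66 for MT1G, 0.91 to 1.49 for MT1F and 0.70 to 1.66 for MT1E. These genes share sequence with other metallothioneins, 23.3% of the 31-base stretches of MT1G, 15.6% of those of MT1E and 3.25% of those of MT1F, so the split of reads among them is uncertain.

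MT2A and MT1X followed the same order of groups. MT2A, the most abundant, was at 234 and 295 CPM in cells given compound 4, 98.7 and 191 CPM in cells given compound 6 and 40.9 and 45.5 CPM in DMSO. Its difference between the compounds was 0.88 (edgeR adjusted p = 0.314), and it rose against DMSO with compound 4 (2.65, edgeR adjusted p = 3.50e-04) as well as compound 6 (1.78, edgeR adjusted p = 0.0066). MT1X was at 21.2 and 28.1 CPM, 13.1 and 12.2 CPM, and 8.64 and 10.2 CPM in the same order (difference 0.98, edgeR adjusted p = 0.142). The zinc exporter SLC30A1, another target of MTF1, had a difference of 0.49 (95% interval 0.27 to 0.70, edgeR adjusted p = 0.173), with 126 and 123 CPM against 85.2 and 93.8 CPM. The zinc importer SLC39A10 went the other way, at 23.2 and 17.95 CPM after compound 4 and 38.4 and 33.6 CPM after compound 6 (difference -0.79, edgeR adjusted p = 0.149). MTF1 itself was at 18.6 and 16.6 CPM under compound 4 and 16.6 and 19.2 CPM under compound 6, and the interval of its difference ran from -0.32 to 0.29.

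The promoters of MT2A and MT1X are shown because both genes were highest with compound 4 and MTF1 acts through short metal response elements. Each window holds 250 bases before and 50 bases after the start of the gene (RefSeq, GRCh38.p14, 5' to 3' on the coding strand). Capitals mark TGCACNC or TGCGCNC on either strand, with overlapping matches joined. MT2A is from the plus strand of chr16:56608334-56608633 and MT1X from the plus strand of chr16:56682220-56682519.
MT2A: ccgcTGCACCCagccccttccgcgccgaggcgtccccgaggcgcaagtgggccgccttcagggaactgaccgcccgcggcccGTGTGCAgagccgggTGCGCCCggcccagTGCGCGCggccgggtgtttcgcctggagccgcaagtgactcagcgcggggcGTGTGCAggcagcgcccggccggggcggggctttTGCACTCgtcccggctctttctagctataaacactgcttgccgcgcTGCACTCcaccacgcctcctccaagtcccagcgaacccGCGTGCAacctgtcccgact
MT1X: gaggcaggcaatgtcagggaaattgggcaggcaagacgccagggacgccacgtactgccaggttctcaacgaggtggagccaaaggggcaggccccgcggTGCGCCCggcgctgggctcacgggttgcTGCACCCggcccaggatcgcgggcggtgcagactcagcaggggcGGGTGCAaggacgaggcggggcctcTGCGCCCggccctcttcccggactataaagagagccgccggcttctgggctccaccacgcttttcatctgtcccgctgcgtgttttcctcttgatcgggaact
There were 8 matches in MT2A and 4 in MT1X. Of 35116 promoters of this length, 29.6% held at least 1 match and 0.601% held 4 or more. A match describes these letters and not a bound site.

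Enzymes of cholesterol synthesis were lower with both compounds, and their values were lower with compound 4 than with compound 6. Of 20 tested members 19 were lower and 1 higher with compound 4, and their median difference was -0.30. At an unadjusted p under 0.05 there were 10 and 1, beside 4.57% and 5.24% of all tested genes. None was called in edgeR. DESeq2 called 3 as lower, among them HMGCS1 and FDFT1, beside 0.188% of all genes it tested. Over the 4 pairs of libraries the median ran from -0.64 to -0.05, and it was -0.17 without replicate 1 of compound 6 and -0.49 without replicate 2 of compound 4. Relative to genes of the same length class it was -0.34. Against DMSO the medians were -1.03 and -0.75 for compounds 4 and 6. As lower, 19 and 16 members passed, beside 5.42% and 1.6% of all tested genes. HMGCS1, which makes HMG-CoA, was at 44.7 and 50.05 CPM in cells given compound 4, 84.2 and 66.7 CPM in cells given compound 6 and 152 and 154 CPM in DMSO. The 3 groups did not overlap, and the difference between the compounds was -0.65 (standard error 0.13, 95% interval -0.94 to -0.37, edgeR adjusted p = 0.169). FDFT1, squalene synthase, had a difference of -0.74 (edgeR adjusted p = 0.277). PMVK was the member higher with compound 4, at 10.8 and 11.9 CPM against 8.76 and 7.38 CPM.

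Most genes of sterol sensing and uptake had lower values with compound 4. Of 12 members 3 were higher and 9 lower, with a median of -0.21, and NPC1L1 was the member called in edgeR. At an unadjusted p under 0.05, 1 was higher and 5 lower, beside 5.24% and 4.57% of all tested genes. DESeq2 called 2 as lower, beside 0.188% of all genes it tested. The median ran from -0.28 to -0.17 over the pairs of libraries and from -0.31 to -0.15 with single libraries left out. Relative to genes of the same length class it was -0.17. The cholesterol efflux pump ABCA1 was at 59.5 and 36.5 CPM in cells given compound 4 and 81.7 and 83.5 CPM in cells given compound 6 (difference -0.77, edgeR adjusted p = 0.281, DESeq2 adjusted p = 0.0338), while its list of 9 efflux and LXR target genes had a median of 0.02.

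All 11 tested genes of fatty acid synthesis and desaturation were lower with compound 4. At an unadjusted p under 0.05 there were 6, beside 4.57% of all tested genes. None was called in edgeR. DESeq2 called 3 as lower (FASN, ACLY and SCD), beside 0.188% of all genes it tested. The median of the 11 genes, -0.49, was the lowest of the lists. It ran from -0.66 to -0.20 over the pairs of libraries, was -0.27 without replicate 1 of compound 6, and was -0.40 relative to genes of the same length class. Fatty acid synthase, FASN, was at 634 and 589 CPM after compound 4, 899 and 835 CPM after compound 6 and 1003 and 1120 CPM in DMSO. The difference was -0.49 (standard error 0.10, 95% interval -0.71 to -0.27, edgeR adjusted p = 0.173). FASN fell against DMSO with compound 4 (-0.76, edgeR adjusted p = 0.00152), and the value with compound 6 was -0.27 (edgeR adjusted p = 0.162). The stearoyl-CoA desaturase SCD was at 934 and 808 CPM under compound 4, 1534 and 1040 CPM under compound 6 and 1706 and 1712 CPM in DMSO. The lipid droplet gene PNPLA3 was at 7.83 and 9.40 CPM in cells given compound 4 and 17.1 and 14.3 CPM in cells given compound 6 (difference -0.84, edgeR adjusted p = 0.173). By contrast the lipid droplet coat gene PLIN2 was at 805 and 818 CPM after compound 4 and 591 and 607 CPM after compound 6 (difference 0.45, edgeR adjusted p = 0.18), and the 14 genes of its list, PPAR alpha targets and fatty acid oxidation, had a median of 0.03.

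**Figure D3:**
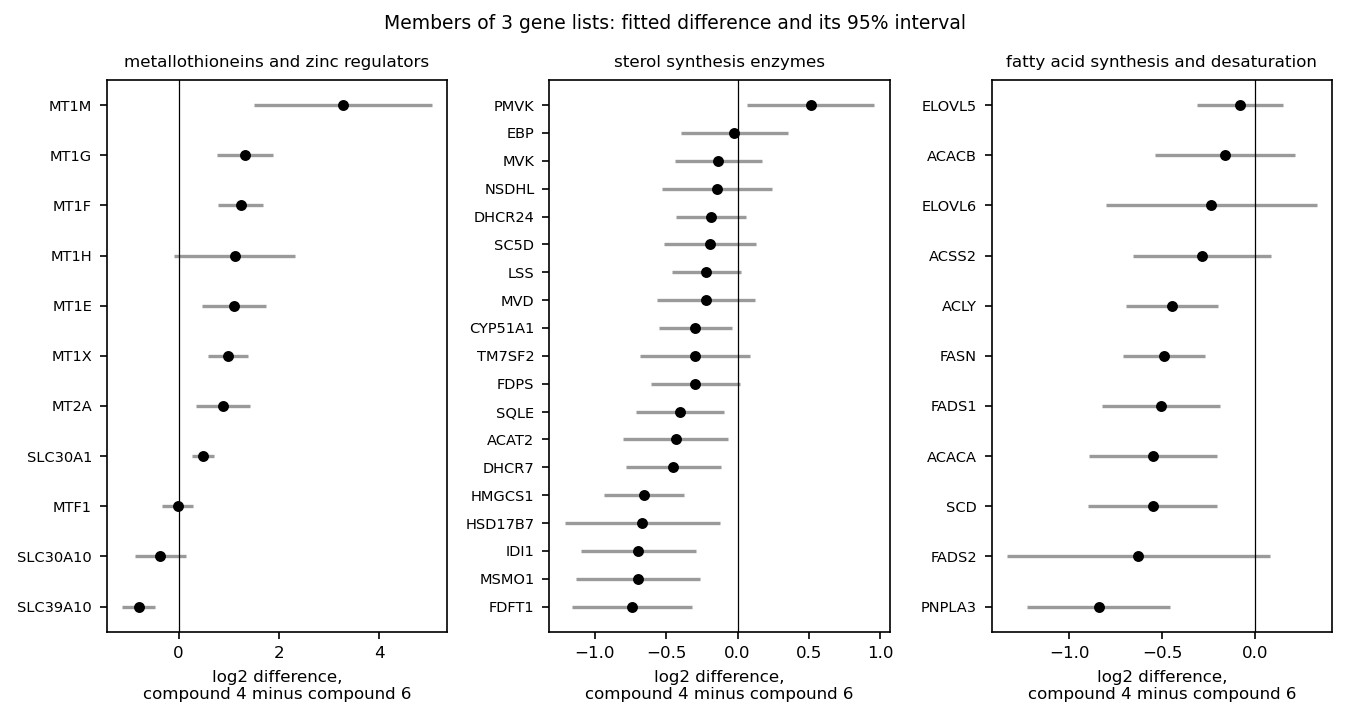
Fitted log2 difference between compound 4 and compound 6 (points, horizontal axis) with its 95% interval (lines) for the tested members of 3 gene lists; the horizontal scale differs between panels. Of the metallothionein list 8 of 11 members lie above 0. Of the 20 tested genes of sterol synthesis 1 is not reported here and not drawn, and 18 of the 19 drawn lie below 0. Of fatty acid synthesis all 11 lie below 0.

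CYP1A1, the main target of the aryl hydrocarbon receptor, was at 69.6 and 61.9 CPM under compound 4, 16.7 and 29.7 CPM under compound 6 and 4.22 and 3.33 CPM in DMSO. Both compounds raised it, by 4.17 (edgeR adjusted p = 2.13e-04) and 2.67 (edgeR adjusted p = 0.00425), and the 3 groups did not overlap. Compound 4 gave 2.83 times the level of compound 6, a difference of 1.501 (standard error 0.24, 95% interval 0.97 to 2.04) that did not pass (edgeR adjusted p = 0.0941, range over 20 alternatives 1.01e-17 to 0.236). The members of its list showed no common direction. Of 7 tested genes 4 were higher and 3 lower, the median was 0.09, and AHR itself was at 289 and 254 CPM in cells given compound 4 and 269 and 313 CPM in cells given compound 6. The CYP1A1 promoter is shown because CYP1A1 had the highest difference of this list. It is from the minus strand of chr15:74725479-74725778 (RefSeq, GRCh38.p14), with the receptor's core element GCGTG, searched on both strands, in capitals.
CYP1A1: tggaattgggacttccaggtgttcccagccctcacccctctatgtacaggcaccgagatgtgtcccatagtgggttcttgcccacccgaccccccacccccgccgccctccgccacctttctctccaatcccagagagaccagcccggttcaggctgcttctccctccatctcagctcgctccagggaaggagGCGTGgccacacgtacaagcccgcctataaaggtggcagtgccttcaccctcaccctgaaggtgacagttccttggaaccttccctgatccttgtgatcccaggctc
It held 1 match, and 36.5% of the 35116 promoters held at least 1. The same letters had 2 matches in the window of NPC1L1, which was lower with compound 4, and 0 in those of RAB17, CCR6 and CYP3A5. A sterol element, TCACNCCAC on either strand, had 0 matches in the 15 sterol synthesis promoters of the table and was held by 1.13% of all promoters. No match says only that these letters are not in the window.

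CYP3A5, the close relative of CYP3A4, was at 13.6 and 11.1 CPM after compound 4, 4.54 and 3.73 CPM after compound 6 and 1.61 and 1.54 CPM in DMSO. The groups did not overlap, and compound 4 gave 3.02 times the level of compound 6 (difference 1.59, standard error 0.25, 95% interval 1.05 to 2.14, edgeR adjusted p = 0.0941). Both compounds raised it against DMSO, by 3.01 (edgeR adjusted p = 3.36e-04) and 1.41 (edgeR adjusted p = 0.0355). For CYP3A4 the difference was 0.56 (95% interval 0.26 to 0.86, edgeR adjusted p = 0.249), which passed in DESeq2 (adjusted p = 0.0231), and neither compound passed against DMSO in edgeR. These counts do not separate reads of the transgene from those of the native gene, and 19.6% of its 31-base stretches occur in other genes, mostly CYP3A7. CYP2B6 was at 11.1 and 8.70 CPM under compound 4 and 9.71 and 12.4 CPM under compound 6, and the interval of its difference ran from -0.74 to 0.42. Of the 8 tested members of the CYP3A family and other PXR or CAR targets 6 were higher and 2 lower, with a median of 0.44 (0.32 to 0.52 over the pairs of libraries, and 0.40 relative to genes of the same length class).

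**Figure D4:**
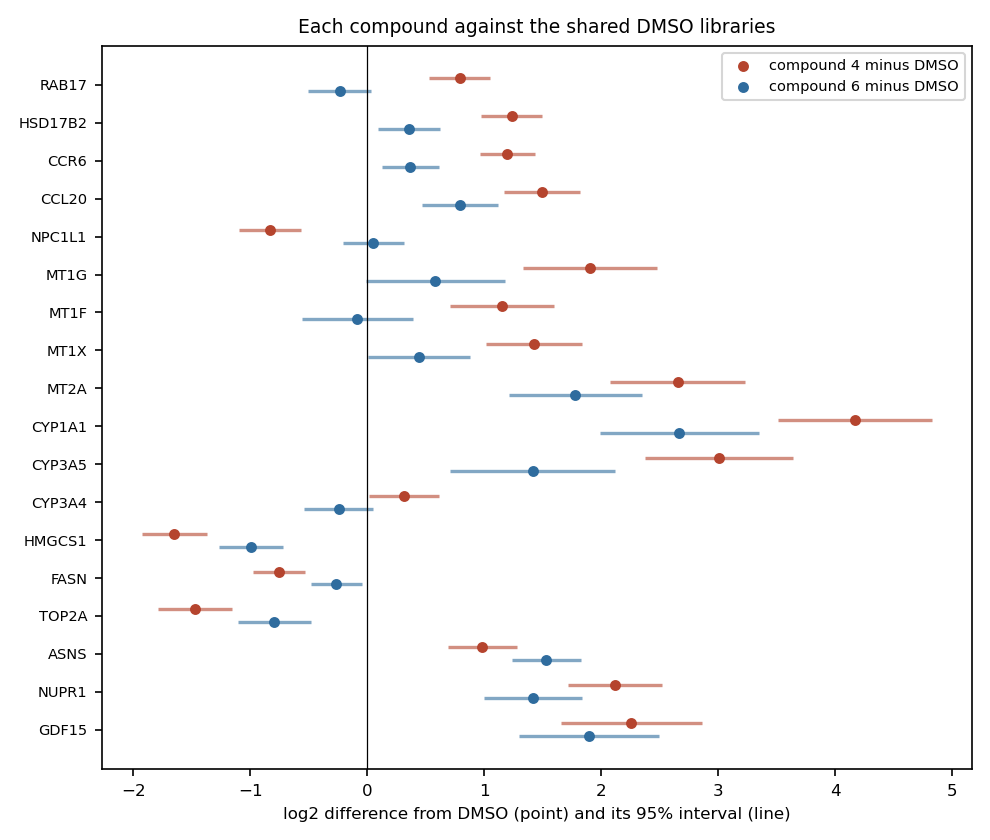
Log2 difference from DMSO (horizontal axis) of 18 genes with compound 4 and compound 6, with 95% intervals. Both compounds share the DMSO libraries, so their values are not independent of each other. RAB17 and NPC1L1 lie on opposite sides of 0 with the 2 compounds, but their intervals with compound 6 include 0. CYP1A1, CYP3A5, MT2A and HMGCS1 lie on the same side with both compounds and farther from 0 with compound 4.

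Genes of mitosis and chromosome segregation were lower with both compounds. Directly compared, 44 of 46 tested members were lower and 2 higher with compound 4. At an unadjusted p under 0.05, 22 were lower, beside 4.57% of all tested genes. None was called in edgeR, and DESeq2 called TOP2A and CENPF as lower, beside 0.188% of all genes it tested. The list had a median of -0.33. This median ran from -0.50 to -0.15 over the pairs of libraries, was -0.21 without replicate 1 of compound 6, and was -0.31 relative to genes of the same length class. Against DMSO the medians were -0.99 and -0.65, with 45 members lowered by compound 4 and 29 by compound 6. Of all tested genes compound 4 lowered 5.42% and compound 6 lowered 1.6%. Topoisomerase TOP2A was at 184 and 179 CPM in cells given compound 4, 339 and 247 CPM in cells given compound 6 and 479 and 556 CPM in DMSO. Its difference was -0.68 (standard error 0.14, 95% interval -0.99 to -0.36, edgeR adjusted p = 0.173). The proliferation marker MKI67 was at 128 and 61.6 CPM after compound 4 and 171 and 138 CPM after compound 6, with a wide interval of -1.32 to -0.07 (edgeR adjusted p = 0.472). Leaving out single libraries took the MKI67 difference from -1.30 to -0.27. The 44 genes of the DNA replication machinery differed less, with 32 lower and 12 higher. At an unadjusted p under 0.05, 4 were lower, beside 4.57% of all tested genes. The list had a median of -0.14. This median was 0.12 without replicate 1 of compound 6 and -0.34 without replicate 2 of compound 6, and -0.11 relative to genes of the same length class. The 23 regulators of the cell cycle had a median of -0.10, and CDKN1A differed by 0.10 (95% interval -0.13 to 0.34).

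The study singled out 9 genes for their expression with these compounds, and they were chosen on these samples, so their values are not independent evidence. None was called between the compounds in edgeR or DESeq2, and 3 were higher and 6 lower. At an unadjusted p under 0.05 there were 2 (NUPR1 and TICRR), beside 9.81% of all tested genes. For the replication gene TICRR the difference was -0.53 (95% interval -1.03 to -0.03), for E2F7, a repressor of cell cycle genes, -0.54 (-1.10 to 0.03), and for the polymerase subunit POLA2 -0.29 (-0.79 to 0.22). The helicase subunit GINS4 differed by -0.17 (-0.60 to 0.25), the flap endonuclease FEN1 by 0.28 (-0.11 to 0.67) and the ubiquitin ligase RFWD3 by 0.02 (-0.28 to 0.33). The receptor kinase AXL was at 24.5 and 17.5 CPM in cells given compound 4 and 12.8 and 30.9 CPM in cells given compound 6, with overlap. NUPR1, a stress-induced transcriptional regulator, was at 21.0 and 18.5 CPM after compound 4 and 10.5 and 13.9 CPM after compound 6, a difference of 0.70 (95% interval 0.34 to 1.06, edgeR adjusted p = 0.229).

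Values of most ATF4 targets were higher with compound 6 than with compound 4, by a difference that depended on 1 library. Of 19 members 14 were lower and 5 higher with compound 4 than with compound 6, and the median was -0.34. At an unadjusted p under 0.05 there were 9 and 1, beside 4.57% and 5.24% of all tested genes. None was called in edgeR. DESeq2 called ASNS, PHGDH and PSAT1 as lower, beside 0.188% of all genes it tested. The median was 0.01 without replicate 2 of compound 6 and -0.52 without replicate 1 of compound 6, and -0.38 relative to genes of the same length class. Against DMSO the medians were 0.52 and 0.86 for compounds 4 and 6, and 6 and 13 members rose, beside 6.5% and 2.8% of all tested genes. Asparagine synthetase, ASNS, was at 120 and 118 CPM under compound 4, 155 and 196 CPM under compound 6 and 65.1 and 58.9 CPM in DMSO (difference -0.55, 95% interval -0.83 to -0.26, edgeR adjusted p = 0.231). The cystathionine beta-synthase gene CBS was at 48.1 and 48.6 CPM in cells given compound 4 and 62.4 and 76.5 CPM in cells given compound 6 (difference -0.51, edgeR adjusted p = 0.229), although 55.9% of its 31-base stretches also occur in CBSL. The stress cytokine GDF15 was at 1509 and 1772 CPM after compound 4, 852 and 1718 CPM after compound 6 and 400 and 305 CPM in DMSO. It rose with both compounds (2.26 and 1.89, edgeR adjusted p = 0.00101 and 0.00616), and the 2 replicates of compound 6 lay farther apart than the compounds.

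Autophagy and lysosome genes and heat shock chaperones had small differences in the same direction. Of 23 autophagy and lysosome genes 18 were higher with compound 4. At an unadjusted p under 0.05, 7 were higher, beside 5.24% of all tested genes. None was called in edgeR. DESeq2 called 1 as higher (CTSB), beside 0.328% of all genes it tested. Both compound 4 libraries were above both of compound 6 in 15 of the 23 genes, beside 17.7% of all tested genes. The median was 0.18 (0.15 to 0.25 over the pairs of libraries), and 0.17 relative to genes of the same length class. The protease cathepsin B, CTSB, was at 1517 and 1513 CPM under compound 4, 917 and 1120 CPM under compound 6 and 730 and 649 CPM in DMSO (difference 0.59, 95% interval 0.31 to 0.86, edgeR adjusted p = 0.179). The autophagy receptor SQSTM1 was at 1128 and 1188 CPM in cells given compound 4 and 631 and 976 CPM in cells given compound 6. Of 13 heat shock chaperones 12 were higher, 4 at an unadjusted p under 0.05, beside 5.24% of all tested genes. None was called in edgeR. DESeq2 called 2 as higher (HSPA1A and HSPA1B), beside 0.328% of all genes it tested. The list median was 0.21, and also 0.21 relative to genes of the same length class. HSPA1A and HSPA1B, which share most of their sequence, summed to 443 and 582 CPM after compound 4, 309 and 338 CPM after compound 6 and 351 and 520 CPM in DMSO, so compound 4 overlapped DMSO and compound 6 lay below it. Neither passed against DMSO.

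**Figure D5:**
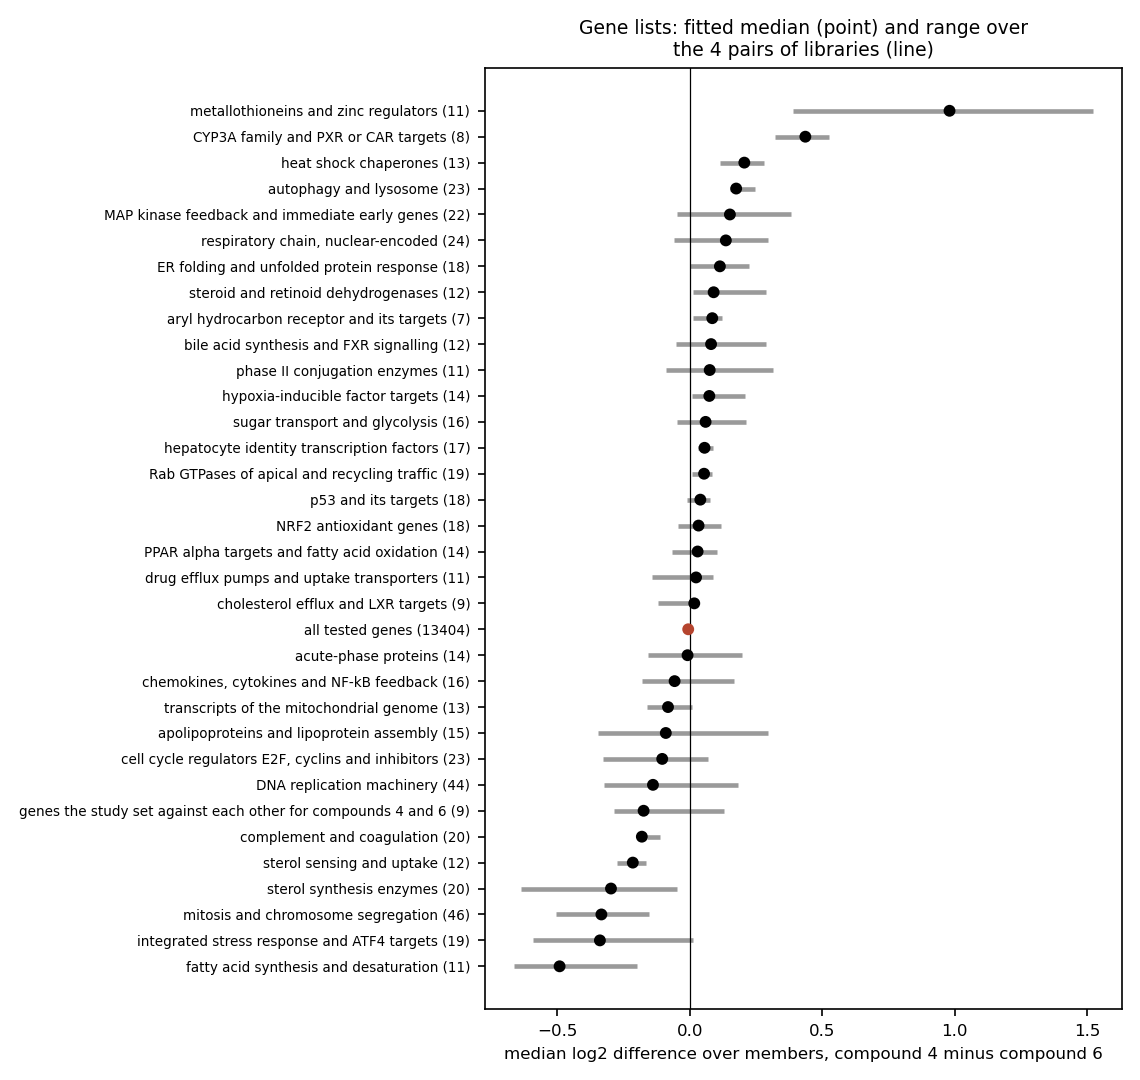
Median log2 difference between compound 4 and compound 6 over the tested members of the 33 gene lists (points, number of members in brackets) with the range of the same median over the 4 pairs of libraries (lines); all tested genes are the red point. The fitted median can lie outside the range of pairs. Metallothioneins and zinc regulators lie highest at 0.98 and fatty acid synthesis and desaturation lowest at -0.49.

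For the remaining lists the medians lay between -0.18 and 0.15. Over the 33 lists, 16 medians changed sign when a single library was left out. Of the lists in this paragraph, those of complement and coagulation, ER folding, hepatocyte transcription factors and hypoxia targets did not. Neither did those of p53 targets, bile acid synthesis and mitochondrial transcripts. With single libraries left out, complement and coagulation ran from -0.19 to -0.09 and hepatocyte transcription factors from 0.04 to 0.14. Complement and coagulation genes had a median of -0.18, with 14 of 20 lower, and C5 was at 104 and 98.2 CPM under compound 4 and 154 and 134 CPM under compound 6 (difference -0.49, edgeR adjusted p = 0.184). The nuclear-encoded respiratory chain had 22 of 24 members higher by small amounts, with a median of 0.14, but no member at an unadjusted p under 0.05 or called in edgeR or DESeq2. That median was -0.0046 without replicate 2 of compound 4, 0.27 without replicate 1 of compound 4 and 0.08 without replicate 2 of compound 6. MAP kinase feedback and immediate early genes had a median of 0.15, which was -0.05 without replicate 1 of compound 6, 0.35 without replicate 2 of compound 6 and 0.09 without replicate 2 of compound 4. Genes of ER folding and the unfolded protein response had a median of 0.11, which was 0.22 without replicate 1 of compound 4, 0.06 without replicate 2 of compound 4 and 0.04 without replicate 2 of compound 6. Medians were 0.04 for p53 targets, none of the 18 at an unadjusted p under 0.05, 0.03 for the 18 NRF2 antioxidant genes, 0.02 for drug efflux pumps and uptake transporters and 0.08 for phase II conjugation enzymes. They were 0.06 for sugar transport and glycolysis, where RSC1A1 was listed and was the member called, 0.07 for targets of the hypoxia-inducible factor, 0.08 for bile acid synthesis and FXR signalling and 0.06 for hepatocyte transcription factors. Acute-phase proteins had a median of -0.01, transcripts of the mitochondrial genome -0.08 and apolipoproteins -0.09.

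Single members of these lists stood apart without being called in edgeR. SLC51B, OSGIN1 and NDRG1, like PLIN2 and C5 above, passed in DESeq2. The bile acid exporter subunit SLC51B was at 33.3 and 40.8 CPM in cells given compound 4, 17.6 and 22.8 CPM in cells given compound 6 and 11.5 and 9.81 CPM in DMSO (difference 0.88, 95% interval 0.52 to 1.24, edgeR adjusted p = 0.142). OSGIN1, a target of NRF2, was at 98.6 and 93.3 CPM after compound 4 and 63.3 and 65.1 CPM after compound 6 (difference 0.59, edgeR adjusted p = 0.149), and HMOX1 differed by 0.30 (95% interval 0.07 to 0.52, edgeR adjusted p = 0.411). NDRG1, induced by hypoxia, was at 479 and 432 CPM under compound 4, 333 and 322 CPM under compound 6 and 440 and 411 CPM in DMSO. Haptoglobin, HP, was at 9.12 and 13.4 CPM in cells given compound 4, 19.2 and 16.3 CPM in cells given compound 6 and 31.7 and 33.9 CPM in DMSO. Albumin, ALB, differed by -0.03 (95% interval -0.33 to 0.27).

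In the lists not yet exemplified the member with the smallest p was as follows. The sulfotransferase SULT2A1 was at 55.4 and 62.9 CPM after compound 4 and 41.4 and 34.8 CPM after compound 6 (difference 0.65, 95% interval 0.33 to 0.97, edgeR adjusted p = 0.203). MTTP, which loads lipid onto apolipoprotein B, was at 79.1 and 78.3 CPM against 124 and 95.2 CPM (difference -0.46, 95% interval -0.76 to -0.17), below its 158 and 145 CPM in DMSO. The ER chaperone gene DNAJB9 differed by 0.47 (95% interval 0.16 to 0.78) and the MAP kinase phosphatase DUSP1 by 0.42 (0.12 to 0.72). Smaller positive differences were those of the nuclear receptor RXRA at 0.25 (0.04 to 0.46), the p53 target PHLDA3 at 0.27 (-0.07 to 0.61) and the complex III subunit UQCRC1 at 0.20 (-0.04 to 0.45). Negative differences were those of the retinoblastoma gene RB1 at -0.38 (-0.63 to -0.14), the polymerase alpha catalytic subunit POLA1 at -0.48 (-0.88 to -0.08) and the mitochondrial transcript MT-ND4L at -0.44 (-0.82 to -0.05).

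Of the genes averaging 1 CPM or more whose libraries did not overlap between the compounds and whose unadjusted p was under 0.05, the 8 highest and 8 lowest differences were mostly in genes of low level or shared sequence. SECTM1, a gene with no 31-base stretch in common with other genes, was at 6.63 and 8.32 CPM after compound 4, 2.53 and 1.41 CPM after compound 6 and 3.11 and 2.13 CPM in DMSO (difference 1.96, 95% interval 1.24 to 2.68, edgeR adjusted p = 0.1). The long noncoding RNA UCA1 was at 12.1 and 7.07 CPM under compound 4, 1.69 and 3.48 CPM under compound 6 and 0.703 and 0.341 CPM in DMSO (difference 1.86, edgeR adjusted p = 0.203). The organic anion transporter SLCO4C1 was at 0.516 and 0.389 CPM in cells given compound 4, 2.01 and 1.91 CPM in cells given compound 6 and 2.61 and 3.33 CPM in DMSO (difference -2.08, edgeR adjusted p = 0.179). CDRT4 was at 2.58 and 6.06 CPM after compound 4 and 0 and 0.0830 CPM after compound 6, and 73.2% of its 31-base stretches occur in other genes, mostly the read-through gene TVP23C-CDRT4. ENSG00000285920 was at 0 with compound 6 and at 4.30 and 0.233 CPM with compound 4, that is 50 and 3 counts. Over both libraries it was at least 15.5-fold higher with compound 4, but without replicate 1 of compound 4 its 3 counts lie at the floor and give no fold. ENSG00000262633 was at 0 with compound 4 and at least 20.1-fold lower. In other genes lay 98.8% of the stretches of ENSG00000285920 and 93.9% of those of ENSG00000262633. The other higher genes were LGI4 (1.94), IGFL2-AS1 (1.78), ENSG00000288684 (1.77) and C1QTNF3-AMACR (2.62). C1QTNF3-AMACR was at 2.93 and 3.03 CPM under compound 4 and 1.06 and 0 CPM under compound 6. Leaving out single libraries took its difference from 1.502 to 8.13, and 96.7% of its stretches lie in other genes. The other lower genes were ENSG00000288721 (-2.09), ENSG00000262304 (-2.68), ENSG00000244255 (-3.22) and ENSG00000285106 (-4.39, or -7.46 to -3.53 with single libraries left out), beside RSC1A1 and ENSG00000277067. Apart from RSC1A1 and ENSG00000277067 none of these was called in edgeR, and DESeq2 also called SECTM1, UCA1, CDRT4 and ENSG00000262633.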

How the data were processed

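RNA-seq was measured in 8 samples, DMSO and compounds 4, 5 and 6 with 2 replicates each. The authors checked reads with FastQC 0.12.0, quantified transcripts with Salmon 1.5.0 against GRCh38 and summarised them to genes with tximeta; DESeq2 1.38.3 is also named in the submitters' processing notes. The deposited values are estimated counts per gene in whole numbers. The library totals above set the counting precision.

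From these counts the comparison was fitted in R 4.3.3 with edgeR 4.0.16 (quasi-likelihood test, TMM scaling, filterByExpr, all 8 samples in 4 groups, Benjamini-Hochberg over 13404 of 60230 genes, call at 0.05). limma 3.58.1 and DESeq2 1.42.0 were alternatives among 20 fits, and the tests were first tested on simulated data. Standard errors and intervals come from the same fit. An exact permutation test of 2 against 2 samples cannot give a two-sided p below 0.333, so none was used. Names matched 60089 of the identifiers and 141 had none. Coordinates and shared 31-base stretches used GENCODE 29 on GRCh38, an earlier release than the one the authors quantified against, so the shared percentages may differ from those of the counted transcripts. Promoters used RefSeq on GRCh38.p14. Every column of the table was used.

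The comparison, gene lists and named genes were chosen with earlier results of these data known. Named genes were those called with or without the day block, the 8 highest and 8 lowest non-overlapping differences with an unadjusted p under 0.05 and a mean of at least 1 CPM, the member with the smallest p in each of 33 lists, and a panel of 19; 62 are described and 2 are not reported here. Chosen after their values were seen were CCL20, AKR1D1, MT1X, MT2A, MTF1, SLC30A1, SLC39A10, FDFT1, PMVK, SCD, PNPLA3, AHR, CYP2B6, ASNS, SQSTM1, HSPA1A, further genes named as passing in DESeq2, and the genes of the closing observations.

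The day is a label shared by replicates of different groups. Replicate differences of compounds 4 and 6 correlated across genes at -0.0826, and those of the 6 pairs of groups between -0.0826 and 0.16 (genes are not independent replicates).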

Additional observations from a re-analysis of the deposited data

Results flagged for a closer look

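For 4 genes the direct difference passed and the changes of the 2 compounds against DMSO pointed in opposite directions. None of the 4 changes of compound 6 against DMSO passed (edgeR adjusted p = 0.311 for RAB17, 0.864 for NPC1L1, 0.266 for RSC1A1 and 0.249 for ENSG00000277067), so the opposite direction is one of values only. RAB17 differed by 1.03 (log2, compound 4 minus compound 6; edgeR adjusted p = 0.0257, n = 2 per group), with compound 4 above DMSO in both libraries and compound 6 below it in both. NPC1L1 differed by -0.88 (edgeR adjusted p = 0.0377), with both compound 4 libraries below DMSO and compound 6 within 0.05 of it. RSC1A1 and ENSG00000277067 had fitted differences of -9.24 and -9.39 (edgeR adjusted p = 0.0368 and 0.00585). Both were at 0 with compound 4 and above DMSO with compound 6, the fitted values depend on the prior count, and both genes share all their 31-base stretches with another gene.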

How the results depend on the processing

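Without the filter on low counts edgeR called 294 genes instead of 6. Of the 294, 288 also passed the filter and 36 averaged below 1 CPM over compounds 4 and 6. The count of 6 genes was 74 in DESeq2, 2 with only compounds 4 and 6 fitted, 3 with DMSO, compound 4 and compound 6, 1 at an adjusted p of 0.01 and 12 at 0.1. Leaving out single libraries gave 0 to 117. With the day as a replicate block it was 6 in edgeR and 59 in DESeq2. The count of genes with an interval within 2-fold kept within 1.5 times of 11020 in the alternatives that gave intervals, which the DESeq2 fits did not. Without the filter it was 13108 of 22717 genes, against 11020 of 13404. AXL changed sign to 0.0230 in limma-voom. Leaving out libraries changed the sign of 7 uncalled genes described: AXL ran from -0.57 to 0.73, POLA2 from -0.66 to 0.16, GDF15 from -0.0772 to 0.96, GINS4 from -0.45 to 0.12, ALB from -0.20 to 0.14, RFWD3 from -0.17 to 0.22 and FEN1 from -0.0267 to 0.64. The causes were not tested. Of the 33 list medians, 16 changed sign when a single library was left out and 13 moved beyond the replicate spread. Phase II enzymes ran from -0.09 to 0.35, apolipoproteins from -0.15 to 0.24, MAP kinase feedback from -0.05 to 0.35, cell cycle regulators from -0.31 to 0.09, and chemokines from -0.20 to 0.13. Under the other alternatives 2 medians changed sign and 3 lists moved, 1 of these also relative to genes of the same length class, complement and coagulation at -0.13. With 2 samples against 2, differences smaller than the intervals given were not detectable.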

Other observations

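Genes outside the lists, named after their values had been seen, did not pass in edgeR and passed in DESeq2. OAS1, an interferon-induced sensor of double-stranded RNA, was at 120 and 112 CPM after compound 4, 67.7 and 76.4 CPM after compound 6 and 50.6 and 49.7 CPM in DMSO. The 3 groups did not overlap, and the difference was 0.69 (95% interval 0.46 to 0.93, edgeR adjusted p = 0.0859). MAP3K8, a kinase upstream of MEK, was at 17.2 and 18.7 CPM under compound 4, 9.61 and 8.38 CPM under compound 6 and 13.5 and 10.7 CPM in DMSO (difference 1.02, edgeR adjusted p = 0.0941). Compound 6 lay below DMSO and compound 4 above it, and the rise with compound 4 passed (0.61, edgeR adjusted p = 0.031). BHLHA15, a transcription factor of secretory cells, was at 50.7 and 53.1 CPM in cells given compound 4 and 33.7 and 32.5 CPM in cells given compound 6, beside 31.9 and 29.9 CPM in DMSO (difference 0.66, edgeR adjusted p = 0.0941).

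The metalloprotease MEP1A was at 168 and 173 CPM in cells given compound 4, 265 and 240 CPM in cells given compound 6 and 243 and 265 CPM in DMSO (difference -0.56, edgeR adjusted p = 0.122). The compound 6 libraries overlapped DMSO, and both compound 4 libraries were below it. The laminin receptor BCAM was at 88.6 and 97.9 CPM after compound 4, 147 and 150 CPM after compound 6 and 161 and 192 CPM in DMSO (difference -0.66, edgeR adjusted p = 0.122). CYP24A1, the vitamin D 24-hydroxylase, was at 940 and 814 CPM under compound 4, 504 and 675 CPM under compound 6 and 161 and 152 CPM in DMSO. It rose with both compounds (2.53 and 1.94, edgeR adjusted p = 6.72e-05 and 8.26e-04), and the difference between them was 0.58 (edgeR adjusted p = 0.249). The glycerol channel AQP3 was at 36.4 and 29.5 CPM in cells given compound 4, 12.04 and 20.1 CPM in cells given compound 6 and 4.22 and 4.43 CPM in DMSO (difference 1.03, edgeR adjusted p = 0.173).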
